A study of Mus musculus with 8 samples.

Results

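The subject here is 7 genes known from neurons that stood at higher levels in the liver of C57BL/6J mice (B6) than in the liver of a congenic strain: Gnao1, Nnat, Nrgn, Slc32a1, Nhlh2, Nxph3 and Lrrtm4. They are 7 of the 13840 genes that the array's annotation named by a single symbol, and each was measured by 1 probe. The genes were chosen from the liver strain difference in these same arrays, so that difference is described below and not tested. Their levels in hypothalamus, set beside it when they were chosen, are a description too. The diet differences and the hypothalamus strain difference were not used to choose them, and these were tested.

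The study compared B6 males with males of homozygous males of the congenic strain B6.CAST-17, in search of candidate genes for a nutrient intake locus on chromosome 17. Liver and hypothalamus were taken from both strains on chow or after 24 h of 2-choice feeding. That was a free choice of 2 diets that held 22% protein with either 78% carbohydrate or 78% fat. The 2-choice pools were sampled 4 h before lights out, and no sampling time was recorded here for the chow pools. From 20 to 25 mice of each strain screened for 10 days, the most extreme in intake were kept and put back on chow for 6 weeks, so the pools are not random draws from a strain. Each of the 8 single-channel arrays read RNA pooled from 6 mice, which gives 1 pool for each combination of tissue, strain and diet and no repeated pool. Free-text notes of some samples name another tissue, strain or diet than their titles, and the titles were followed. The titles matched the tissues: Alb, the albumin of hepatocytes, had log2 levels of 20.07 to 21.40 in liver and 8.75 to 11.42 in hypothalamus, and the orexin precursor Hcrt 14.48 to 15.98 in hypothalamus and 8.22 to 8.89 in liver. In bulk tissue, fewer cells of a type and less RNA per cell cannot be told apart.

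Neurons signal by releasing transmitter from vesicles onto receptors, and many of those receptors act through heterotrimeric G proteins. Genes for this machinery are commonly kept silent outside the nervous system, in part by the repressor REST, which binds a DNA element called RE1. Liver holds sparse nerve fibres, whose cell bodies, and with them most of their messenger RNA, lie outside the organ. None of the 7 genes is on chromosome 17 (0 of 7). Nnat and Slc32a1 are on chromosome 2, Nhlh2 on chromosome 3, Lrrtm4 on 6, Gnao1 on 8, Nrgn on 9 and Nxph3 on 11.

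Promoter windows of 300 bases, from 250 before to 50 after the annotated start, were read for 6 of the 7 genes from RefSeq sequence of the build GRCm38.p6, 7 windows in all since Lrrtm4 has a pair of starts. Windows of 3 genes are shown, for the least common motif found (the NRF1 site, in Nnat) and for the E-box shared by Nhlh2 and Lrrtm4. All 3 are on the plus strand, at chr2:157559828-157560127 for Nnat, chr3:102009895-102010194 for Nhlh2 and chr6:80018627-80018926 for Lrrtm4. Capitals mark matches, on either strand, to the palindromic NRF1 site, CAGCTG (an E-box, the kind of site that bHLH factors such as NHLH2 bind), GGACAG (the right part of RE1) and TATAAA.
Nnat: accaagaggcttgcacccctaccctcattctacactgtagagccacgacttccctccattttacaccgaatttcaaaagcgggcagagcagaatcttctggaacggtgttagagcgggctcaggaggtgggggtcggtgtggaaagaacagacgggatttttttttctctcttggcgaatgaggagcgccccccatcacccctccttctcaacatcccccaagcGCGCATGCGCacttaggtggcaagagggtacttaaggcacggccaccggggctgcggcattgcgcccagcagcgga
Nhlh2: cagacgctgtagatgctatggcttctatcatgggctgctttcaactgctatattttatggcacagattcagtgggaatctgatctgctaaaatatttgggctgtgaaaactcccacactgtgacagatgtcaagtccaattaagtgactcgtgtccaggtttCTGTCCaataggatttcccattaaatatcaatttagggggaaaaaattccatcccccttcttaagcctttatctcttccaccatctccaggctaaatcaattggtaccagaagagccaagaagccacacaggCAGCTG
Lrrtm4: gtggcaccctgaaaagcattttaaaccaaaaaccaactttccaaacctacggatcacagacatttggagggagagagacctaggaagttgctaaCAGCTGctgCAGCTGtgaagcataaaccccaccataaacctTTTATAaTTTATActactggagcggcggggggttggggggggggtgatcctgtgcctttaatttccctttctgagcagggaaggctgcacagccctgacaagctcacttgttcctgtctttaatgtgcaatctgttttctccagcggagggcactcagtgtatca

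No motif was in all 7 windows. The NRF1 site stood in the Nnat window and in 0.971% of all 32851 promoter windows. The E-box letters stood in the Nhlh2 window and in both Lrrtm4 windows, and in 16.3% of all windows. The letters GGACAG were in 4 of the 7 windows, of Gnao1, Slc32a1, Nhlh2 and the second Lrrtm4 start, against 22.2% of all windows. So short a run does not mark an RE1 element. TATAAA was in the first Lrrtm4 window, against 13.6% of all windows. The left part of RE1, TTCAGCACC, was in 0 of the 7 windows and in 0.371% of all, which says only that these letters were not in these windows. Base composition ran from 43.3% G and C in Nhlh2 to 76.3% in Gnao1, around a median of 52.7% over all windows.

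Levels below are log2 probe intensity, brought to 1 distribution over the 4 arrays of a tissue. A level under 9.04 in liver or 9.26 in hypothalamus lies in the dimmest 40% of probes by tissue mean and is called under the filter level. Probes whose mean passed that level were tested. By that rule 7 of the 7 genes were tested in liver and 6 in hypothalamus, all but Lrrtm4. Passing in liver rested on the B6 arrays for genes whose congenic values were dim, so it is no evidence for them.

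Gnao1 (probe 446055) encodes the alpha subunit of Go, the abundant G protein of neurons. Its liver levels were 10.79 in B6 and 8.79 in the congenic pool on chow, and 10.51 and 8.51 on 2-choice. The congenic minus B6 difference was therefore -2.01 and -2.0 in the 2 liver pairs, the closest match between pairs of any of the 7. Both congenic values were under the filter level, so the 4.01-fold mean difference depends on values near the floor of the array. In hypothalamus Gnao1 was at 14.43 and 14.89 on chow and 14.06 and 14.32 on 2-choice, B6 first.

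Nrgn (probe 555374) encodes neurogranin, a postsynaptic protein that binds calmodulin when calcium is low. Its liver levels were the lowest of the 7 in B6, 9.90 on chow and 9.62 on 2-choice, against 8.57 and 8.61 in the congenic pools. The B6 livers were 2.51-fold higher on chow and 2.03-fold higher on 2-choice, the smallest difference of the 7 on either diet. In hypothalamus Nrgn ran from 15.27 to 16.09.

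Slc32a1 (probe 798287), the transporter that loads GABA and glycine into synaptic vesicles, was at 10.90 in B6 and 8.41 in congenic liver on chow. On 2-choice it was at 11.98 and 10.46, so both strains stood higher there than on chow and the congenic 2-choice pool came near the B6 chow pool. The pairs differed by -2.49 and -1.53. In hypothalamus its 4 levels lay between 17.13 and 17.35 (mean 17.21 ± 0.09 SD over 4 pools of both strains and diets).

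Nxph3 (probe 451920) encodes a neurexophilin, a secreted ligand of presynaptic alpha-neurexins. In liver it was at 10.75 and 11.34 in B6, and at 8.80 and 8.43 in the congenic pools, on chow and 2-choice. It had the largest mean difference of the 7, 5.36-fold, with both congenic values under the filter level. Its hypothalamus levels were 11.60 to 13.00. With all 8 arrays brought to 1 distribution, B6 liver and B6 hypothalamus on 2-choice were both at 11.47.

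Lrrtm4 (probe 874703), a postsynaptic adhesion protein of excitatory synapses, did not follow its label in these arrays. Its hypothalamus levels were 9.18 and 7.93 on chow and 8.72 and 9.64 on 2-choice, so 3 of the 4 were under the filter level. In liver it was at 11.18 and 9.65 on chow and 11.86 and 8.70 on 2-choice, B6 first. Both B6 livers were above every hypothalamus array, also with all 8 arrays on 1 distribution (11.32 and 11.95 against at most 9.50), and the pairs differed by -1.52 and -3.16.

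Nhlh2 (probe 918786), a neuronal bHLH transcription factor whose loss makes mice obese, was the brightest of the 7 in liver. Its B6 livers stood at 12.29 on chow and 13.88 on 2-choice, and its congenic livers at 10.58 and 11.52, above the filter level in all 4. In hypothalamus it was steady at 13.38 to 13.55 (mean 13.49 ± 0.08 SD over 4 pools). With all 8 arrays on 1 distribution the B6 2-choice liver was at 13.77, above each hypothalamus array (13.46 to 13.66).

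Nnat (probe 918512), neuronatin, is a small membrane protein of the endoplasmic reticulum, expressed from the paternal copy. Its gene lies inside an intron of Blcap. Nnat was at 10.19 and 7.70 in liver on chow, and at 10.29 and 8.94 on 2-choice, B6 first, with both congenic values under the filter level. The chow pair was 5.62-fold apart and the 2-choice pair 2.54-fold. In hypothalamus, at 17.33 to 18.07, it was among the brightest probes of each array, above 99.2% or more of all probes.

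**Figure D1:**
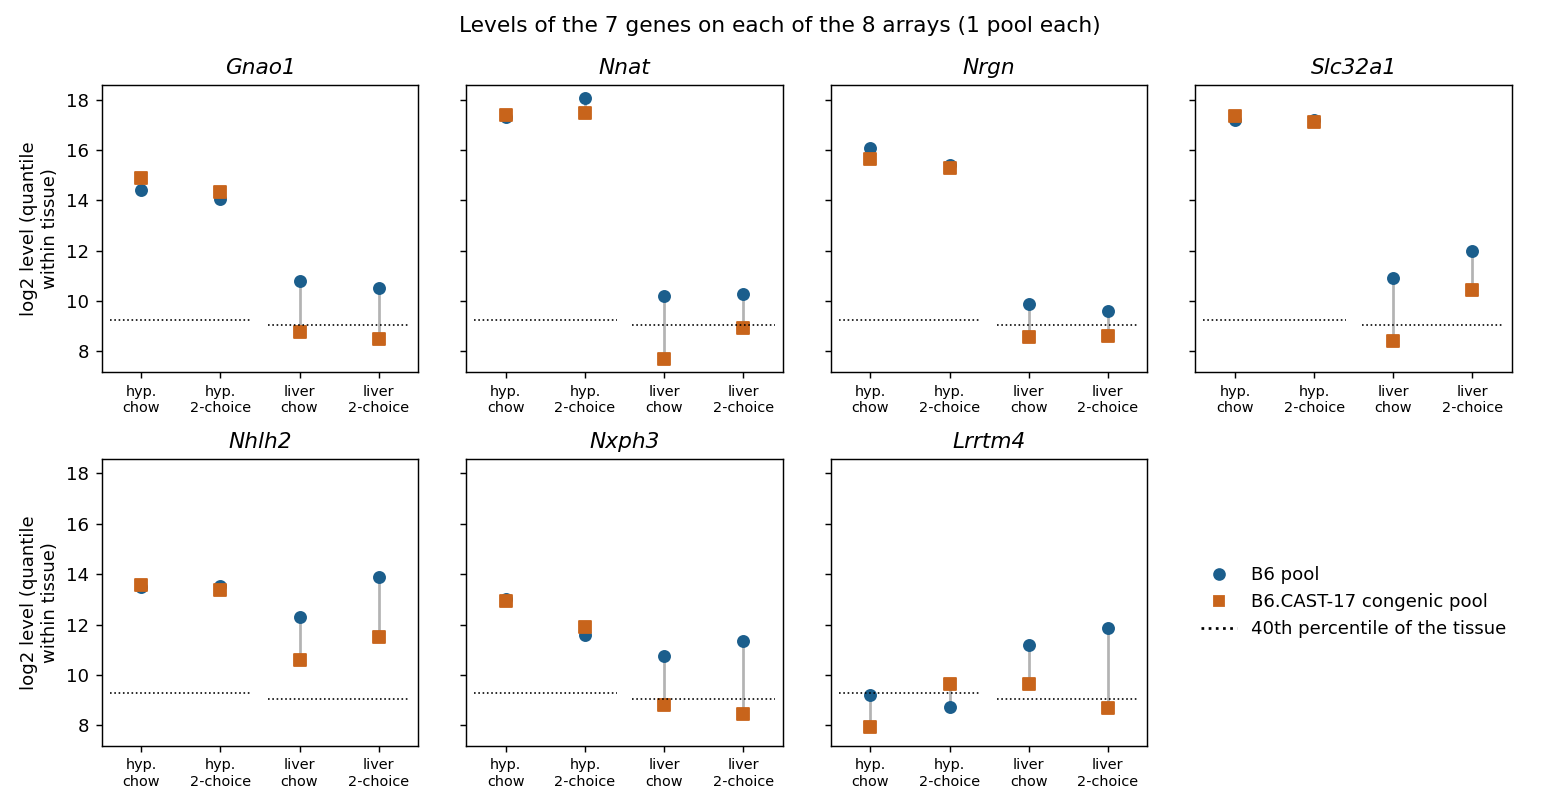
Log2 level of each of the 7 genes (vertical axis, quantile normalized within each tissue) in every pool, by tissue and diet (horizontal axis); circles are B6 pools, squares congenic pools, and the dotted lines the 40th percentile of each tissue. In liver the B6 circle is above the congenic square in every pair, while in hypothalamus the symbols lie close together except for Lrrtm4, which is dim there.

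In liver, both B6 pools were above both congenic pools for 7 of the 7 genes, as were 18.0% of the 19807 probes tested. All 7 were at least 1.5-fold higher in B6 in both pairs, against 7.03% of probes (4.18% were so in the congenic pools), and at least 2-fold higher in both, against 2.44%. These counts follow from how the genes were chosen, and nothing is read from them. The median mean difference of the 7 was -2.01, beside 0.01 over all probes tested. Of the 14 congenic liver values 10 were under the filter level, and of the B6 values 0 were. The 7 B6 levels lay between the 53.3 and 88.8 percentile of the probes on their arrays, and the congenic levels between the 2.07 and 74.3 percentile.

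**Figure D2:**
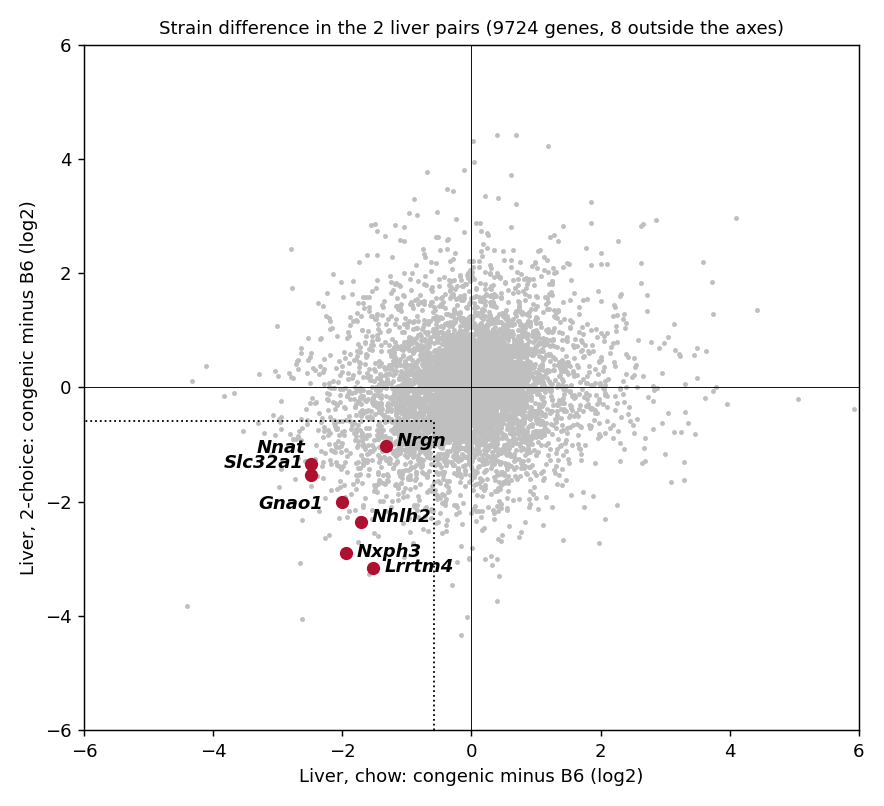
Congenic minus B6 log2 difference in the chow liver pair (horizontal axis) and the 2-choice liver pair (vertical axis) for 9724 genes tested in liver (grey; 8 lie outside the axes) and the 7 genes (red); dotted lines mark a 1.5-fold difference. All 7 fall in the lower left corner, from Nrgn near its edge (-1.33 and -1.02) to Lrrtm4 (-1.52 and -3.16) and Nxph3 (-1.94 and -2.90).

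The 7 genes differed widely in how far the tissues stood apart. With all 8 arrays brought to 1 distribution, hypothalamus was higher than liver by 8.80 log2 units for Nnat, 7.24 for Slc32a1, 6.72 for Nrgn and 4.88 for Gnao1. It was higher by 2.38 for Nxph3 and 1.46 for Nhlh2, and lower by 1.66 units, a difference of -1.66, for Lrrtm4. The deposited distributions differ between tissues, so these levels across tissues depend on the scaling chosen here. On the same scale, the intensity by which B6 liver exceeded congenic liver was set against the B6 hypothalamus intensity of the same gene and diet. For Nnat it came to 0.454% on chow and 0.199% on 2-choice, for Nrgn to 0.712% and 0.858%, and for Slc32a1 to 0.816% and 1.21%. For Gnao1 it was 5.96% and 6.69%. Nxph3 gave 17.6% and 87.6%, and Nhlh2 28.6% and 84.1%. No share is given for Lrrtm4, whose B6 hypothalamus levels (9.18 and 8.72) were under the filter level. These shares combine the values that chose the genes, so they are a description and nothing is read from them.

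Other neuronal genes were read from lists of markers. Of 67 measured genes in 5 lists (pan-neuronal genes, GABA neurons, glutamate neurons, peripheral and autonomic neurons, hypothalamic peptides), 32 were tested in liver. Of these, 5 were at least 1.5-fold higher in B6 in both pairs and 0 higher in the congenic pools, beside 5.90% and 3.52% of the 9724 genes tested in liver. Over all 67, dim genes included, 5 were higher in B6 and 2 in the congenic pools, the tachykinin gene Tac1 (1.43 and 2.42) and Slc17a6, a vesicular glutamate transporter (1.92 and 0.65), beside 5.59% and 3.86% of all measured genes. The median difference over all 67 was 0.03, as over all measured genes (0.03), and over the 32 tested it was -0.16. The 5 were Tubb4a, a neuronal beta-tubulin (-2.98 on chow and -1.74 on 2-choice), the microtubule protein Map2 (-3.11 and -1.18), tyrosine hydroxylase Th (-1.27 and -0.88), the peripheral neurofilament protein Prph (-0.68 and -0.67) and the oxytocin gene Oxt (-1.10 and -0.78). Both congenic values of Tubb4a (8.66 and 9.02) and Map2 (8.03 and 8.38) were under the filter level, as was the congenic 2-choice value of Oxt (8.65). Passing the filter rested there on the B6 arrays. Not all 5 were far brighter in hypothalamus. On levels scaled by tissue, Map2 was at 11.14 and 9.56 in B6 liver and 11.36 and 11.97 in B6 hypothalamus. The hypothalamus levels of Th, given below, were near those of B6 liver.

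Of the 67 genes, 14 were under the filter level in all 4 livers. Hcrt was one, at 8.22 and 8.89 in the B6 pools. Others were Stmn3, Elavl4, Ina and Nsg2 of the pan-neuronal list and the peptide genes Cartpt and Crh. Avp, the vasopressin gene, was not under it in B6, at 10.11 and 9.73 in B6 and 8.36 and 9.47 in congenic liver. Snap25, a vesicle fusion protein, was at 7.55 to 9.26 even in hypothalamus, so its probe says nothing on neurons here. The summed intensity of the 33 pan-neuronal genes was 39971 and 29934 in the B6 livers and 34948 and 27124 in the congenic livers, on chow and 2-choice. Between strains that sum differed less than between diets. That of the peripheral and autonomic list was 48409 and 48954 in B6 against 24121 and 30326. Most of it was Th, which stood at 15.24 and 15.35 in B6 liver and 13.97 and 14.47 in congenic liver. In hypothalamus Th was at 15.22 and 15.15 in B6 and 16.32 and 15.10 in the congenic pools. On levels scaled by tissue its probe was thus near as bright in B6 liver, and that sum is not read as a measure of nerve. The other sums overlapped between the strains: 2326 and 2407 against 2405 and 2885 for GABA neurons, 4142 and 4350 against 4023 and 4775 for glutamate neurons, and 10625 and 9723 against 9947 and 10274 for hypothalamic peptides. The part of nerve fibres or of other cells in the 7 differences was not tested.

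Of all 20 lists, 13 had no tested gene at least 1.5-fold apart one way in both liver pairs. These were the lists of GABA neurons, glutamate neurons, astrocytes, Schwann cells, endocrine cells of the pancreas, cholangiocytes, stellate cells and fibroblasts, Kupffer cells and macrophages, synaptic adhesion, vesicular transporters, neuronal bHLH and homeobox factors, the REST complex and imprinted genes. Some genes of these lists too dim to be tested were apart in both pairs. Neurog2 (-0.81 and -0.92) and Nkx2-1 (-0.88 and -1.21) of the bHLH and homeobox list were higher in B6. So was Slc6a11 (-0.81 and -2.22) of the astrocyte list, while Slc17a6, given above, was higher in the congenic pools. Of all measured genes 5.59% and 3.86% were so apart. In the remaining lists beside those above, oligodendrocyte Olig1 was higher in the congenic pools (0.59 and 0.94). Both its B6 values (8.81 and 8.56) were under the filter level, so passing rested there on the congenic arrays. Cldn11 of the same list, too dim to be tested, was higher in B6 (-0.69 and -1.19). Alb of the hepatocyte list was higher in the congenic pools too, by 1.33 and 0.70. The summed hepatocyte intensity was 8657026 and 7325022 in B6 against 11147154 and 9722833 in congenic liver, and Alb is itself part of that sum. Of the 8 tested hepatocyte genes Alb alone was apart, and the median of the 8 was 0.19. Alb and that sum moved with strain in the direction opposite to the 7 genes, and their part in the result was not tested.

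Lists of relatives and partners of the 7 genes were read the same way, beside the same 5.90% and 3.52% of genes tested in liver. Among 15 tested G protein subunits and RGS regulators, Gnaz, the alpha subunit of Gz and a close relative of Go, was higher in B6 (-1.07 and -1.58). Rgs7, which switches off Go, was higher in the congenic pools (1.17 and 1.38). Both congenic values of Gnaz (8.76 and 8.66) were under the filter level, as was the B6 2-choice value of Rgs7 (8.48). The median of the 15 was 0.09. The list of calmodulin and its partners had 5 tested genes, the calmodulin genes Calm2 and Calm3, Pcp4, Gap43 and Ppp3ca, with a median of 0.08. Of these Pcp4, a small calmodulin-binding protein of neurons, was higher in B6 (-2.0 and -1.38), with congenic values (8.36 and 8.81) under the filter level. Camk4 of that list, too dim to be tested, was also higher in B6 (-1.54 and -0.83). Of the 12 measured neurexin ligands and adhesion genes 0 were 1.5-fold apart one way in both pairs. Lrrtm1 went 2.26 up on chow and -2.05 on 2-choice, and Lrrtm2 and Lrrtm3 were under the filter level in every liver. Nhlh1, the closest relative of Nhlh2, was at 9.01 to 9.64 in the 4 livers and differed by 0.28 and 0.20. Of 9 tested genes of the REST complex 0 were apart, with a median of -0.03.

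**Figure D3:**
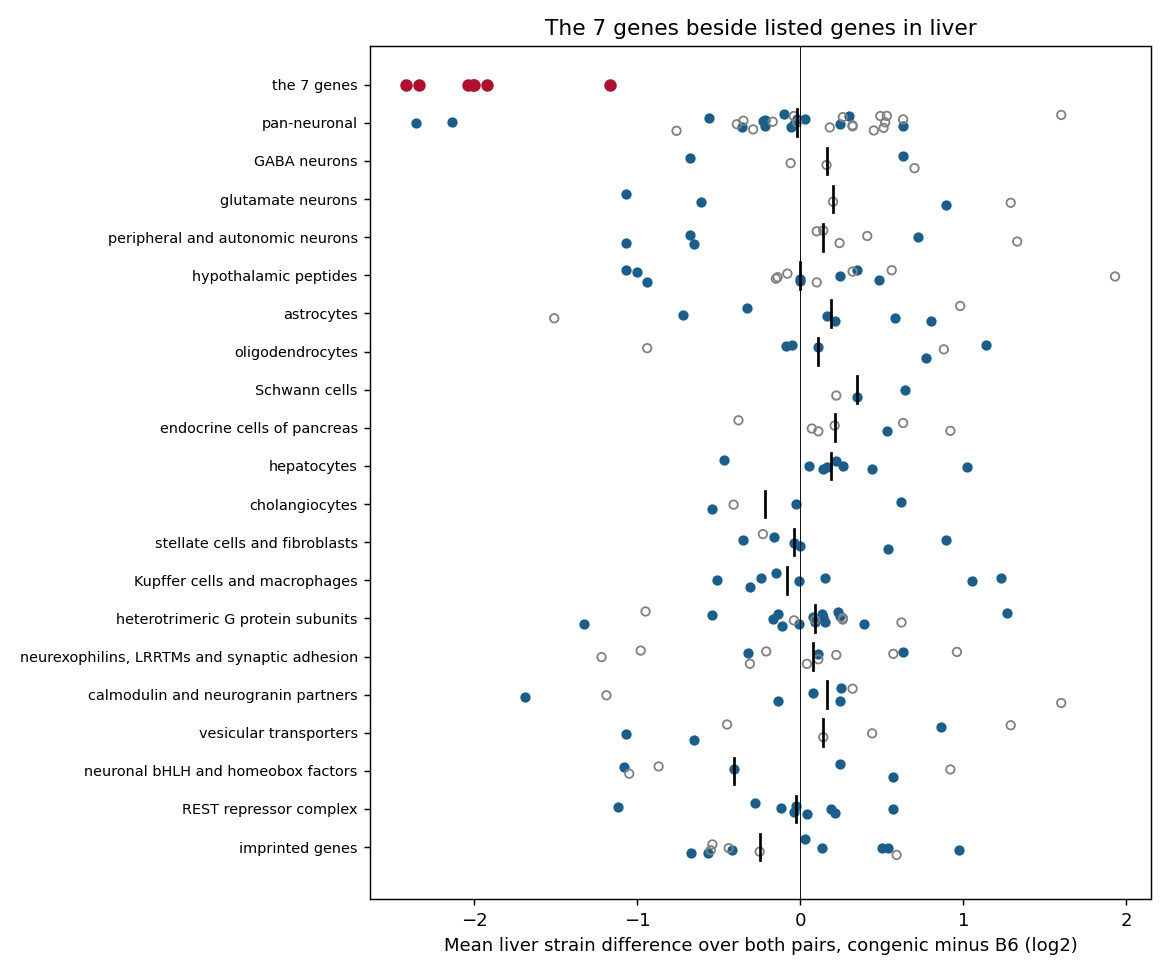
Mean congenic minus B6 log2 difference over both liver pairs (horizontal axis) for the 7 genes (red) and the genes of 20 lists (rows); filled points were tested in liver, open points were too dim, and black bars are list medians. The 7 genes lie between -2.42 and -1.17, while list medians over measured genes lie between -0.41 (bHLH and homeobox factors) and 0.35 (Schwann cells). Single genes such as Tubb4a (-2.36), Map2 (-2.14) and Pcp4 (-1.69) reach the same range, with both congenic values of each under the filter level.

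Genes bright in hypothalamus were counted in both directions. On the scale of all 8 arrays, 894 genes were at least 8-fold higher in hypothalamus than in liver, among them 4 of the 7 (Gnao1, Nnat, Nrgn and Slc32a1). Of the 894, 6.15% were at least 1.5-fold higher in B6 in both liver pairs and 6.15% in the congenic pools, beside 5.73% and 4.13% of all genes. With arrays centred on the median these shares were 5.08% and 6.10%, beside 5.56% and 3.85% of all genes. At 2-fold, on the scale of all 8 arrays, they were 2.46% and 1.57%. Of all probes tested in liver, scaled by tissue, 2.44% were at least 2-fold higher in B6 in both pairs. That share is over probes that passed the filter and on another scale. A 2-fold share over all genes on the scale of all 8 arrays is not given for either direction. The difference between the directions was not tested. The median liver strain difference of the 894 was 0.04.

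The genes with the profile nearest to the mean of the 7 over all 8 arrays were Slc39a10, a zinc transporter (root mean square distance 0.32 log2 units), the claudin gene Cldn10 (0.34), Epb41l1, a neuronal band 4.1 protein (0.36), Gnaz (0.37) and Tmem151a (0.44), out of 9869 candidates. Of the 7 themselves, Gnao1 lay nearest to that mean (0.45) and Lrrtm4 farthest (3.02), followed by Nnat (2.31). The search rewards genes with this liver difference, so it adds no support. In liver Slc39a10 differed by -1.65 and -1.09, Cldn10 by -1.44 and -1.66, Epb41l1 by -2.15 and -0.74, and Tmem151a by -0.98 and -1.61.

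Chromosomal neighbours were then read, a look added after the values of the 7 were known. The nearest measured gene on each side, in the gene order of GRCm38.p6, gave 14 neighbours, of which 12 were tested in liver. Of the 14, 2 were at least 1.5-fold higher in B6 in both pairs and 0 higher in the congenic pools, beside 5.59% and 3.86% of all measured genes. The 2 were the neighbours of Nhlh2 on either side: Mab21l3 (-0.75 and -1.26) and Casq2, a calcium-binding protein of muscle (-0.86 and -0.62). Blcap, the host of Nnat, was at 12.72 and 12.16 on chow and 12.54 and 11.77 on 2-choice, B6 first, and differed by -0.56 and -0.77. Ctnnbl1, the other neighbour of Nnat, had the lowest mean difference of the 14 (-1.99), which came from the chow pair (-3.83 against -0.16). Its B6 chow liver was at 16.33 and the other livers at 11.75 to 12.50.

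The response of liver to 1 day of diet choice was tested in 1 fit of all 8 arrays. Part of the error in that fit is the gap between the 2 liver strain differences, which chose the genes. With the 4 liver arrays alone, a gene's own error is that gap only, so a call there also rests on that choice. Slc32a1 was 1.57 ± 0.26 (SE) log2 units higher on 2-choice, by 1.08 in B6 and 2.05 in the congenic pools. Nhlh2 was 1.27 ± 0.28 higher, by 1.59 and 0.94. Neither passed in limma (adjusted p = 0.175 and 0.286 over 19807 probes), nor did Nnat (0.67 ± 0.31, adjusted p = 0.589), whose difference came from the congenic pair (1.24 against 0.09). Both congenic Nnat values (7.70 and 8.94) and the congenic chow value of Slc32a1 (8.41) were under the filter level. The remaining 4 had mean differences between -0.28 and 0.11 with adjusted p of 0.854 to 0.976. Of these, Gnao1, Nrgn and Nxph3 had both congenic values under the filter level, and Lrrtm4 the 2-choice value. No lack of response is read for them. A filter at the 60th percentile kept 3 of the 7 in this test. Of the 7, 0 were called, with 2 at an unadjusted p under 0.05, and limma called 0 of all 19807 probes (0%), with 1731 at an unadjusted p under 0.05. When the error came from the 4 liver arrays alone, 1 of the 7 was called, Nhlh2 (adjusted p = 0.0256), beside 3.23% of all probes.

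In hypothalamus none of the 6 tested genes passed the test for a strain difference (0 of 6). Gnao1 was 0.36 ± 0.32 (SE) higher in the congenic pools, by 0.45 and 0.26, and Nrgn had a difference of -0.29 ± 0.29. Nnat differed by -0.26 ± 0.31, Nxph3 by 0.11 ± 0.49, Slc32a1 by 0.05 ± 0.26 and Nhlh2 by -0.04 ± 0.28. Adjusted p in limma ran from 0.855 to 0.986, and 0 of the 6 had an unadjusted p under 0.05. Over all 19807 probes 0 were called (0%), with 983 at an unadjusted p under 0.05. The sign of the liver difference was seen in both hypothalamus pairs for Nrgn (-0.44 and -0.15) and in neither for Gnao1. Lrrtm4, too dim to be tested, was at -1.25 on chow and 0.93 on 2-choice.

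The diet difference in hypothalamus turned on the scaling. With arrays of the tissue brought to 1 distribution, Nxph3 differed by -1.20 ± 0.49 (SE; -1.40 in B6 and -1.01 in the congenic pools), Nrgn by -0.53 ± 0.29, Gnao1 by -0.47 ± 0.32 and Nnat by 0.42 ± 0.31. Slc32a1 and Nhlh2 were at -0.10 ± 0.26 and -0.06 ± 0.28. In limma 0 of the 6 passed (adjusted p of 0.208 to 0.923; 1 at an unadjusted p under 0.05), while 97 of 19807 probes (0.490%) did; the 4 arrays alone again called 0 of the 6, beside 3.80% of probes. In the deposited values, where the median of all probes was itself 1.34 higher on 2-choice, all 6 were higher, from 1.05 for Nxph3 to 2.34 for Nnat, so relative to that median Nxph3 alone lay below it. No direction of the diet difference is read for the 6.

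**Figure D4:**
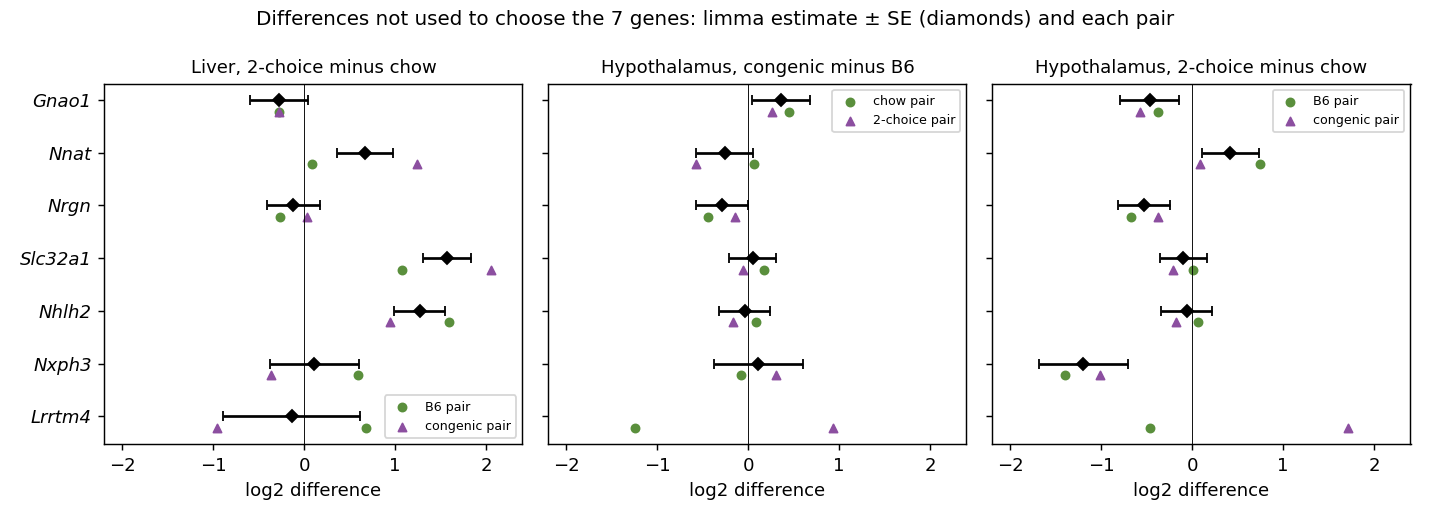
Log2 differences that did not serve to choose the genes: 2-choice minus chow in liver, congenic minus B6 in hypothalamus and 2-choice minus chow in hypothalamus (panels), for each gene (rows). Diamonds with bars are limma estimates ± SE, absent for Lrrtm4 in hypothalamus, where it was not tested, and the small symbols are the separate pairs; Slc32a1 and Nhlh2 lie right of 0 in both liver pairs, and the hypothalamus strain estimates all lie between -0.29 and 0.36.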

How the data were processed

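The deposited table held linear probe intensity for 33012 probes on 8 arrays, made per the labels' protocols from DIG-labelled cRNA. How the authors corrected background or normalized is not given in the sources used here. In every tissue and diet, the sorted values of both strains matched to within 0.243%, so the strains were on 1 scale there. Median intensity was 560 (chow) and 1338 (2-choice) in hypothalamus, and 700 and 702 in liver.

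A probe was named where the platform annotation gave 1 symbol (14411 probes; 247 had several and 18354 none). RefSeq held 14402 of these by Entrez ID, with 0 symbols changed. The brightest probe stood for a gene. Values were put on the log2 scale and quantile normalized by tissue. Probes at or over the 40th percentile of a tissue's mean were tested with limma 3.58.1 (R 4.3.3), with a variance trend and Benjamini-Hochberg adjustment over 19807 probes at 0.05. A single fit over both tissues held strain and diet terms for each tissue, which left 2 residual degrees of freedom. Its error comes from single pools, so p-values reflect no more than how far these pools scatter, and the number of arrays limits the precision. The fit was tested on simulated data, and the outcome is not given here.

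The 7 genes and the 20 lists were chosen with earlier results of these data known. Named genes were the 7, the 5 nearest profiles, up to 3 genes of each list at least 1.5-fold apart one way in both liver pairs, and tissue checks; other genes were named after their values were seen. Alternatives were other scalings, filters and variance models, the 4 arrays of a tissue alone, and a 2-fold limit.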

Additional observations from a re-analysis of the deposited data

Results flagged for a closer look

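For Gnao1 the strain difference had opposite signs in the tissues: both hypothalamus pairs were higher in the congenic pools (mean 0.36) while both liver pairs were lower there. The liver difference chose the gene, so the difference between tissues was not tested. For Lrrtm4 the liver diet difference was 0.68 in B6 and -0.96 in the congenic pools, each over 1.5-fold and opposite in sign. With 1 pool for each strain and diet there is no error for it, and the difference was not tested. The congenic 2-choice value behind it (8.70) was under the filter level.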

How the results depend on the processing

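All 7 genes stayed at least 1.5-fold higher in B6 in both liver pairs as deposited, centred on the median, quantile normalized over all 8 arrays, and at 2-fold. At 2-fold, list genes apart were 4 in place of 7 (B6) and 1 in place of 3 (congenic), and hypothalamus-bright genes 2.46% and 1.57% in place of 6.15% each; fewer genes pass by construction. With the 4 arrays of a tissue alone, 1 of the 7 and 639 probes were called for liver diet, 21 probes for hypothalamus strain and 753 for hypothalamus diet, in place of 0, 0, 0 and 97. As deposited and when arrays were centred on the median, 1 probe was called for hypothalamus strain. With either of these scalings, list genes higher in the congenic livers were 2 in place of 3. Hypothalamus diet calls were 15430 as deposited (5 of the 6 genes), 7633 centred on the median (2 of the 6), 202 over all 8 arrays, 43 with the 60th percentile filter and 0 without a variance trend; the deposited medians there were 560 on chow and 1338 on 2-choice. There, as deposited and then centred on the median, signs reversed for Gnao1 (1.70, 0.45), Nrgn (1.56, 0.30), Slc32a1 (1.86, 0.60) and Nhlh2 (2.17, 0.92), and as deposited for Nxph3 (1.05). Each gene had 1 probe, so averaging probes changed nothing. Leaving out a pair of the other tissue leaves the fit on 4 arrays alone, given above. Signal near the floor limits the size of differences wherever a congenic liver value was under 9.04.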
